A study of Mus musculus with 16 samples.

Results

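The Meis and Pbx genes described here are Meis1, Meis2, Meis3, Pbx2 and Pbx3, 5 of the 23337 genes counted in each library, taken by name from a list of TALE homeobox genes. All 5 passed the filter on low counts. RNA with a poly(A) tail was sequenced from first molar germs of mouse embryos, in which the tooth crown takes its shape before birth. There were 8 libraries labelled upper and 8 labelled lower, 1 of each at every half-day step of age from ED14.5 to ED18.0 (embryonic days). The animals were CD1, an outbred strain, wild type and labelled male. Left and right germs of 1 embryo were put together for a library, and that embryo gave both the upper and the lower library of its stage, so by the labels stage and individual are the same factor. The labels give no treatment.

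TALE proteins are homeodomain transcription factors with extra amino acids in the loop between the first helix and the second helix of the DNA-binding domain. Meis proteins bind DNA together with Pbx proteins, and the pair works alongside Hox proteins in the trunk and limbs and without them in the jaws, which form from an arch of the embryo known to lack Hox expression. In the embryonic face these genes are known for roles in cranial neural crest and palate, and retinoic acid is known to raise Meis1 and Meis2 in other embryonic tissues and cells.

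All 5 genes encode this defining loop, so the coding sequence from that loop to the DNA-recognition helix is shown, 5′ to 3′ on the coding strand, with the codons of the extra loop residues in capitals. The letters come from GENCODE M21 transcripts of mouse build GRCm38, the build also called mm10 that the submitters' processing notes name.
Meis1: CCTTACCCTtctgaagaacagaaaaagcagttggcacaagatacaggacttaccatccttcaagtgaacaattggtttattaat
Meis2: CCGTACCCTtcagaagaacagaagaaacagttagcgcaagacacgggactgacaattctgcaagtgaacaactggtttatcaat
Meis3: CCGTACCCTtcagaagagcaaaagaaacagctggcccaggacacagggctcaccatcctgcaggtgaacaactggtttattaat
Pbx2: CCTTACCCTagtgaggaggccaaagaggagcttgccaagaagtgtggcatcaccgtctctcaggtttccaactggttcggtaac
Pbx3: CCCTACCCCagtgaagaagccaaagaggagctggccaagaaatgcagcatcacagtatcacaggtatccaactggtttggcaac
In Meis1 this stretch spans chr11:18885642-18905762 on the minus strand. In Meis2 it spans chr2:115868794-115921745, also on the minus strand, and in Meis3 it spans chr7:16183794-16184047 on the plus strand. All 3 Meis genes split it between exons 9 and 10 of the transcript used. In Pbx2 it spans chr17:34594655-34594821 on the plus strand and in Pbx3 chr2:34178322-34204842 on the minus strand, both across exons 5 and 6. Of its 84 bases, Meis1 and Meis2 shared 70 (83.3%), Meis2 and Meis3 71 (84.5%), and Pbx2 and Pbx3 70 (83.3%). Pairs of a Meis and a Pbx gene shared from 43 (51.2%, Meis2 and Pbx2) to 52 (61.9%, Meis3 and Pbx2). Over all annotated transcripts no pair of the 5 genes shared a run of 100 bases, the read length, and the longest exact match was 32 bases between Meis1 and Meis2. Among counted genes only Gpsm3 overlapped a member, over 227 exon bases of Pbx2 (6.24% of them), and it measured 3.43 to 5.56 CPM (counts scaled to equal gene totals per library) in upper-labelled germs and 3.96 to 6.04 CPM in lower-labelled germs. Of genes that were not counted, Gm37818 shared 1029 exon bases with Meis1 (9.77%, same strand) and the antisense gene Gm16140 shared 896 (8.51%). Their reads may have entered the Meis1 count, which was not tested.

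The gene counts totalled 33146758 to 44565205 per library, and the lowest value of any member, 2.77 CPM of Meis2, rested on 114 counts. Markers of dental epithelium and of dental mesenchyme were present in every library, the 10 epithelial genes summing to 3054 CPM or more and the 12 mesenchymal genes to 6398 CPM or more. Some counts went against the labels. Xist, the RNA of the inactive X chromosome of female cells, measured 431.8 to 1928 CPM in libraries all labelled male, and 4 Y-linked genes had 2 counts over all 16 libraries. Pou3f3, which encodes a POU-domain factor of the developing upper jaw, alternated along the stages. Under the label upper it had 109.5 to 131.5 CPM at the whole-day stages (ED15.0, ED16.0, ED17.0 and ED18.0) and 6.45 to 10.1 CPM at the half-day stages (ED14.5, ED15.5, ED16.5 and ED17.5). Under the label lower it had 60.1 to 86.2 CPM at the whole-day and 4.45 to 5.46 CPM at the half-day stages. Erythroid genes differed between tooth labels that share an embryo, with 4 of 8 higher in upper-labelled germs and 0 lower. The embryonic globin gene Hbb-y measured 3.03 to 102 CPM in upper-labelled and 0.106 to 0.91 CPM in lower-labelled germs. Whether germs that share a stage label were of the same age was not tested. Upper, lower, stage and individual therefore mean the labels throughout, and slopes and ratios within an individual hold only as far as those labels do. The file names carry a code that differs between the tooth labels, so its part and that of the tooth cannot be told apart.

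Meis2, a gene required in mouse for normal cranial neural crest derivatives, had the largest difference between the tooth labels among the members. In the 8 libraries labelled upper Meis2 (chromosome 2, 115863064 to 116065839) measured 16.8 CPM at the lowest, 27.7 CPM at the median and 49.5 CPM at the highest, against 2.77, 4.24 and 15.3 CPM in the 8 labelled lower. The labels did not overlap for this gene, and the upper value was 2.71 to 10.1 times the lower value of the same individual. The log2 difference, labelled upper minus labelled lower, was 2.20 ± 0.23 (SE; edgeR quasi-likelihood F test, Benjamini-Hochberg adjusted p = 7.81e-06), a 4.60-fold difference. It was 2.53 ± 0.26 in the first 4 stages and 1.94 ± 0.24 in the last 4, which carry different numbers in the file names.

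Meis1, best known in blood stem cells and in the near part of the limb, followed in the same direction with a smaller difference. Meis1 (chromosome 11, 18879817 to 19018985) measured 15.8, 22.7 and 29.2 CPM (lowest, median and highest) in upper-labelled germs and 10.0, 12.5 and 21.6 CPM in lower-labelled germs. The labels overlapped, with the lower libraries of ED14.5 and ED16.5 above the lowest upper one, but the upper library was higher in 8 of 8 individuals. The log2 difference was 0.75 ± 0.10 (adjusted p = 7.33e-05, edgeR quasi-likelihood F test), or 1.68-fold. Meis3, which patterns the hindbrain in frog embryos, had the smallest difference. Meis3 (chromosome 7, 16175090 to 16186504) measured 33.3, 39.3 and 44.7 CPM in upper-labelled germs against 32.4, 36.1 and 38.3 CPM in lower-labelled germs. Its log2 difference of 0.13 ± 0.05 did not pass (adjusted p = 0.0653, edgeR quasi-likelihood F test), with the upper library higher in 6 of 8 individuals. The last 4 stages alone gave 0.24 ± 0.07 (adjusted p = 0.0398 in the same test) and the first 4 gave 0.03 ± 0.06. Without individual 2 Meis3 also passed, at 0.17 (adjusted p = 0.0305, edgeR quasi-likelihood F test).

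The Pbx partners differed less than Meis1 and Meis2, with estimates above that of Meis3. Pbx2, which is broadly expressed in mouse embryos, measured 124.9, 142.1 and 158.6 CPM in upper-labelled germs and 106.6, 115.2 and 125.1 CPM in lower-labelled germs (chromosome 17, 34591266 to 34597400). The labels met only at their edges, where upper ED18.0 lay just below lower ED15.0, and the upper library was 1.17 to 1.28 times the lower one in every individual. The small difference of 0.31 ± 0.02 log2 was the most precise of the members (adjusted p = 6.07e-07, edgeR quasi-likelihood F test). Pbx3, which mice need for breathing at birth, measured 24.5, 28.0 and 32.1 CPM in upper-labelled germs and 22.0, 24.9 and 27.3 CPM in lower-labelled germs (chromosome 2, 34171457 to 34373142). Its difference of 0.19 ± 0.06 passed (adjusted p = 0.0302, edgeR quasi-likelihood F test), with the upper library higher in 7 of 8 individuals. It was 0.34 ± 0.06 in the first 4 stages and 0.03 ± 0.05 in the last 4 (adjusted p = 0.746 in the same test), and the gap between these blocks was not tested. Without individual 1, 2, 3 or 4 Pbx3 no longer passed (0.15 to 0.17, adjusted p = 0.0561 to 0.103, edgeR quasi-likelihood F test).

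In all, 4 of the 5 genes were higher in upper-labelled germs and 0 were lower, where 18.1% of the 16287 genes tested were higher, 18.1% were lower and 36.2% differed in either direction. In bulk germs, fewer cells of a type and less RNA per cell cannot be told apart.

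**Figure D1:**
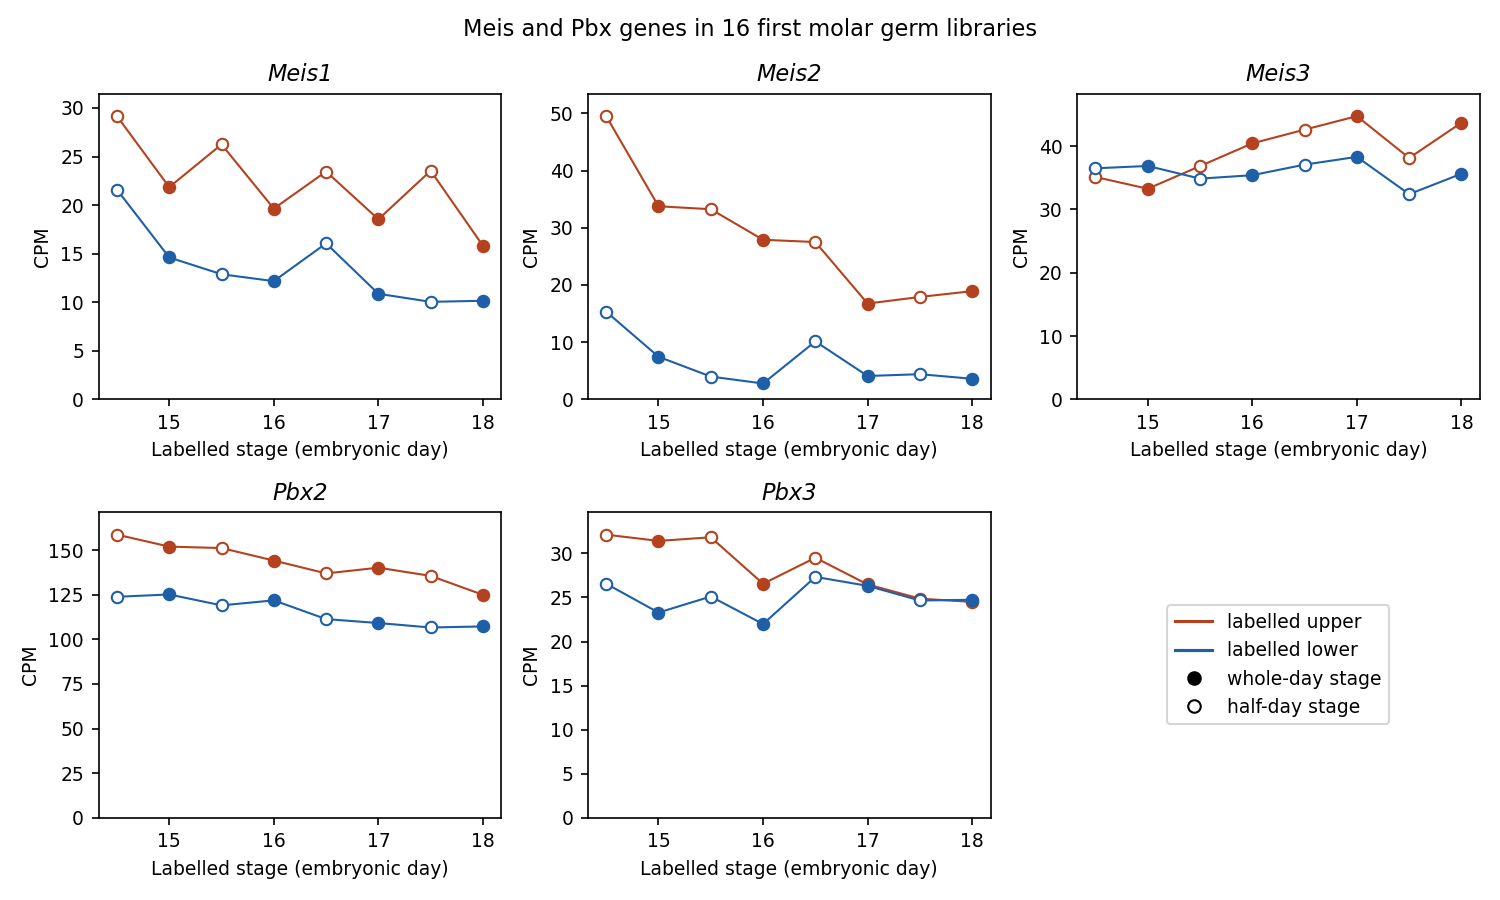
CPM of each gene (y axis) against the labelled embryonic day (x axis), 1 point per library, with libraries labelled upper in red and lower in blue, whole-day stages filled and half-day stages open. The Meis2 lines never meet, those of Pbx3 lie close together from ED17.0, and the upper Meis1 line zigzags between 15.8 and 29.2 CPM.

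Per kilobase of annotated exon, the order of the levels was nearly the same in every library. Pbx2 was highest, with a median of 39.0 CPM per kb in upper-labelled germs and 31.6 in lower-labelled germs. Meis3 followed at 12.4 and 11.4 CPM per kb and Pbx3 at 4.59 and 4.08. These 3 stood in this order in 16 of 16 libraries. Meis1 and Meis2 came last and changed places between the labels. Meis1 lay above Meis2 in 2 of 8 libraries labelled upper and in 8 of 8 labelled lower, with medians of 2.15 CPM per kb for Meis1 and 2.30 for Meis2 in upper-labelled germs and 1.19 and 0.352 in lower-labelled germs. Exon length was summed over all transcripts of a gene, so these levels depend on which transcripts the germs use.

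Over the labelled stages Meis2 fell in the libraries labelled upper, and Pbx2 fell in both labels. Meis2 measured 49.5 CPM at ED14.5, 33.8 at ED15.0, 33.2 at ED15.5, 27.9 at ED16.0, 27.5 at ED16.5, 16.8 at ED17.0, 17.9 at ED17.5 and 18.9 at ED18.0 in upper-labelled germs. Its level thus dropped until ED17.0 and then stayed between 16.8 and 18.9 CPM. The slope was -0.41 ± 0.05 log2 per day (adjusted p = 0.00549, edgeR quasi-likelihood F test). In lower-labelled germs Meis2 measured 15.3, 7.45, 3.98, 2.77, 10.1, 4.08, 4.40 and 3.60 CPM over the same stages, high at ED14.5 and ED16.5. The slope there was -0.43 ± 0.18 (adjusted p = 0.19, edgeR quasi-likelihood F test) and rested on the ED14.5 library, being -0.19 ± 0.22 without individual 1. In blocks of 4 stages its median was 33.5 CPM in the first and 18.4 CPM in the last 4 of upper-labelled germs, and 5.72 and 4.24 CPM in those of lower-labelled germs.

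Pbx2 fell by 0.09 ± 0.02 log2 per day in upper-labelled germs (adjusted p = 0.0155) and by 0.07 ± 0.02 in lower-labelled germs (adjusted p = 0.0439, edgeR quasi-likelihood F test for both). It measured 158.6 CPM at ED14.5 and 124.9 CPM at ED18.0 in upper-labelled germs, and 123.8 and 107.2 CPM in lower-labelled germs. The call in lower-labelled germs was lost without any individual other than the one of ED16.5 (adjusted p = 0.0637 to 0.147, edgeR quasi-likelihood F test), and that in upper-labelled germs without the first or the last stage (0.0923 and 0.0921). Pbx3 fell by 0.12 ± 0.03 in upper-labelled germs (adjusted p = 0.0275, edgeR quasi-likelihood F test), a call lost without individual 1, 2, 3 or 8 (adjusted p = 0.0504 to 0.116 in the same test). Its slope in lower-labelled germs was 0.01 ± 0.03.

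Meis1 had slopes of -0.16 ± 0.06 in upper-labelled germs and -0.25 ± 0.06 in lower-labelled germs, neither past the threshold (adjusted p = 0.12 and 0.0539, edgeR quasi-likelihood F test). With the alternating stages as a further term it fell in both, by 0.13 ± 0.03 and 0.23 ± 0.06 (adjusted p = 0.0113 and 0.0326 in the same test). Meis1 also passed in upper-labelled germs without individual 7 and in lower-labelled germs without individual 5 (adjusted p = 0.04 and 0.0294, edgeR quasi-likelihood F test). Meis3 had 0.10 ± 0.03 in upper-labelled germs and -0.01 ± 0.02 in lower-labelled germs, and passed in upper-labelled germs when individual 7 was left out (adjusted p = 0.0375, edgeR quasi-likelihood F test). Thus 3 of 5 genes fell in upper-labelled germs, where 2.41% of all genes fell and 3.72% rose (6.13% in either direction). In lower-labelled germs 1 of 5 fell, where 1.49% of all genes fell and 2.63% rose (4.11% in either direction). These shares move with the individuals used, since leaving 1 out gave 192 to 1401 genes past the threshold in upper-labelled germs (999 with all) and 34 to 758 in lower-labelled germs (670 with all). Markers of other cells also moved with stage. In upper-labelled germs 8 of 10 skeletal muscle genes rose (median 0.87 log2 per day) and 0 fell, with sums of 4.03 to 57.8 CPM, 4 of 8 cornifying oral epithelium genes rose and 0 fell, with sums of 97.3 to 511 CPM, and 4 of 8 erythroid genes fell and 0 rose, with sums of 34.7 to 148 CPM. In lower-labelled germs 0 genes of the first and second of these lists passed and 1 erythroid gene fell. The median slope of the cornifying list was nevertheless 0.95 log2 per day there, against 0.49 in upper-labelled germs. The test of a slope difference between the labels called 0 of its 8 genes. Of 8 cartilage genes, 2 rose in lower-labelled germs and 0 in upper-labelled germs. Of the dental lists, 1 epithelial gene rose, and 1 mesenchymal gene rose and 1 fell, in upper-labelled germs, and 0 passed in lower-labelled germs. Their part in the slopes of the Meis and Pbx genes was not tested. The slopes of the tooth labels were not shown to differ for any member. The test of that difference called 0 of 5 (1.26% of all genes, 0.682% positive and 0.577% negative), as did DESeq2, while 2 had an unadjusted p under 0.05, Pbx3 at -0.13 ± 0.04 and Meis3 at 0.11 ± 0.04 log2 per day.

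**Figure D2:**
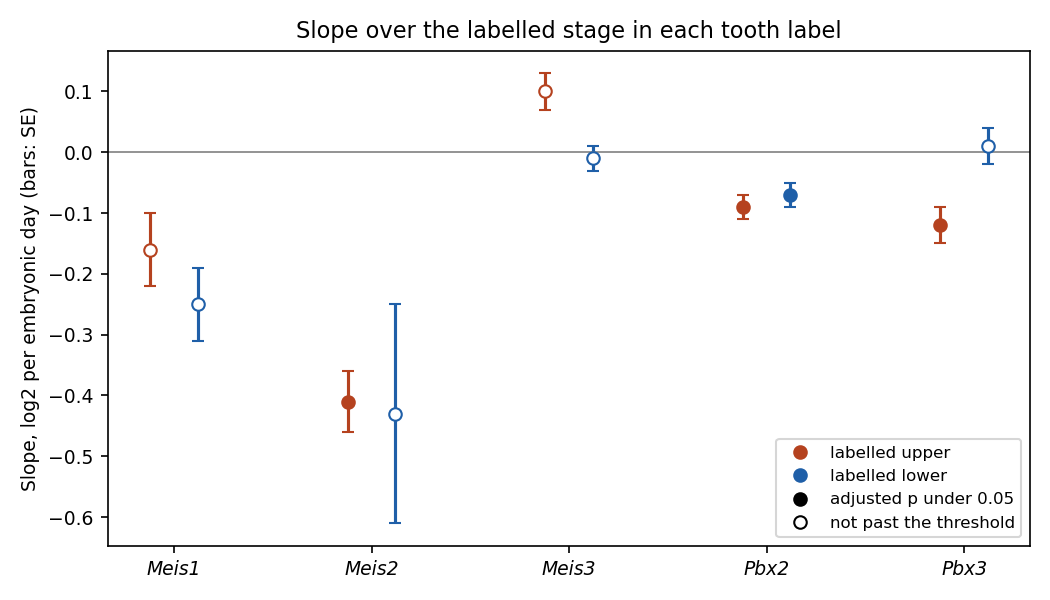
Slope over the labelled stage (y axis, log2 per embryonic day) of each gene (x axis) in the 8 libraries labelled upper (red) and the 8 labelled lower (blue), with bars for the standard error and filled points for an adjusted p under 0.05. The Meis2 slopes are -0.41 in upper-labelled germs, filled, and -0.43 in lower-labelled germs, open. Without individual 1, a fit that is not drawn, the lower slope is -0.19 for Meis2 and -0.17 for Meis1.

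Between the alternating stage sets Meis1 was lower at the whole-day stages, where Pou3f3 was high. The sets follow the labelled stage alone, but the alternation was noticed in the counts of other genes of these libraries, so this comparison describes which members share it. Meis1 measured 21.9, 19.6, 18.5 and 15.8 CPM at the 4 whole-day stages and 29.2, 26.2, 23.5 and 23.5 CPM at the 4 half-day stages of upper-labelled germs. Each of the half-day libraries was above each of the whole-day ones there. In lower-labelled germs it measured 14.6, 12.2, 10.9 and 10.1 CPM at the whole-day stages and 21.6, 12.9, 16.1 and 10.0 CPM at the half-day stages, and the sets overlapped. The log2 difference, whole-day minus half-day with tooth label and its own slope in the model, was -0.29 ± 0.08 (adjusted p = 0.0163, edgeR quasi-likelihood F test). It was -0.37 ± 0.06 in upper-labelled germs alone (adjusted p = 0.00535) and -0.21 ± 0.13 in lower-labelled germs alone (adjusted p = 0.492, same test), a gap between the labels of -0.17 ± 0.15 that did not pass. Without individual 2, 4 or 5 the Meis1 call was lost (adjusted p = 0.0572 to 0.0693, edgeR quasi-likelihood F test).

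The other members did not pass. Meis2 had -0.40 ± 0.22 (adjusted p = 0.243), Pbx3 -0.09 ± 0.04 (0.17), Meis3 0.04 ± 0.05 (0.575) and Pbx2 0.01 ± 0.02 (0.793) in the edgeR quasi-likelihood F test. So 1 of 5 members was lower at the whole-day stages, where 6.67% of all genes were lower and 15.1% differed in either direction. The test of a different alternation in the tooth labels called 0 of 5 members, as did DESeq2, with 0 at an unadjusted p under 0.05 (0.81% of all genes were called, 0.54% positive and 0.27% negative).

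Epithelial and mesenchymal markers moved with the stage sets. Of 10 dental epithelium genes 9 were lower at the whole-day stages (6.67% of all genes were). Among them were Krt5, a keratin gene of the basal layer, at -0.49 ± 0.05 and Epcam, an epithelial adhesion gene, at -0.35 ± 0.05. The sum of the 10 was 3054 to 4111 CPM at the whole-day and 4020 to 5316 CPM at the half-day stages of upper-labelled germs. It was 3967 to 4495 and 4772 to 5515 CPM in lower-labelled germs. None of the 10 was at 0. Of 12 dental mesenchyme genes 8 were higher at the whole-day stages (8.42% of all genes were), among them Lhx6, a jaw mesenchyme homeobox gene, at 0.74 ± 0.07. The 12 summed to 7280 to 10167 and 6398 to 7896 CPM in upper-labelled germs and 8101 to 9514 and 6559 to 8186 CPM in lower-labelled germs. Of these 12, Col1a1 and Col3a1 averaged 2219 and 3024 CPM in upper-labelled germs. Neither passed (0.30 ± 0.10 and 0.08 ± 0.06, adjusted p = 0.058 and 0.467, edgeR quasi-likelihood F test). The part of these marker lists in the Meis1 difference was not tested.

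**Figure D3:**
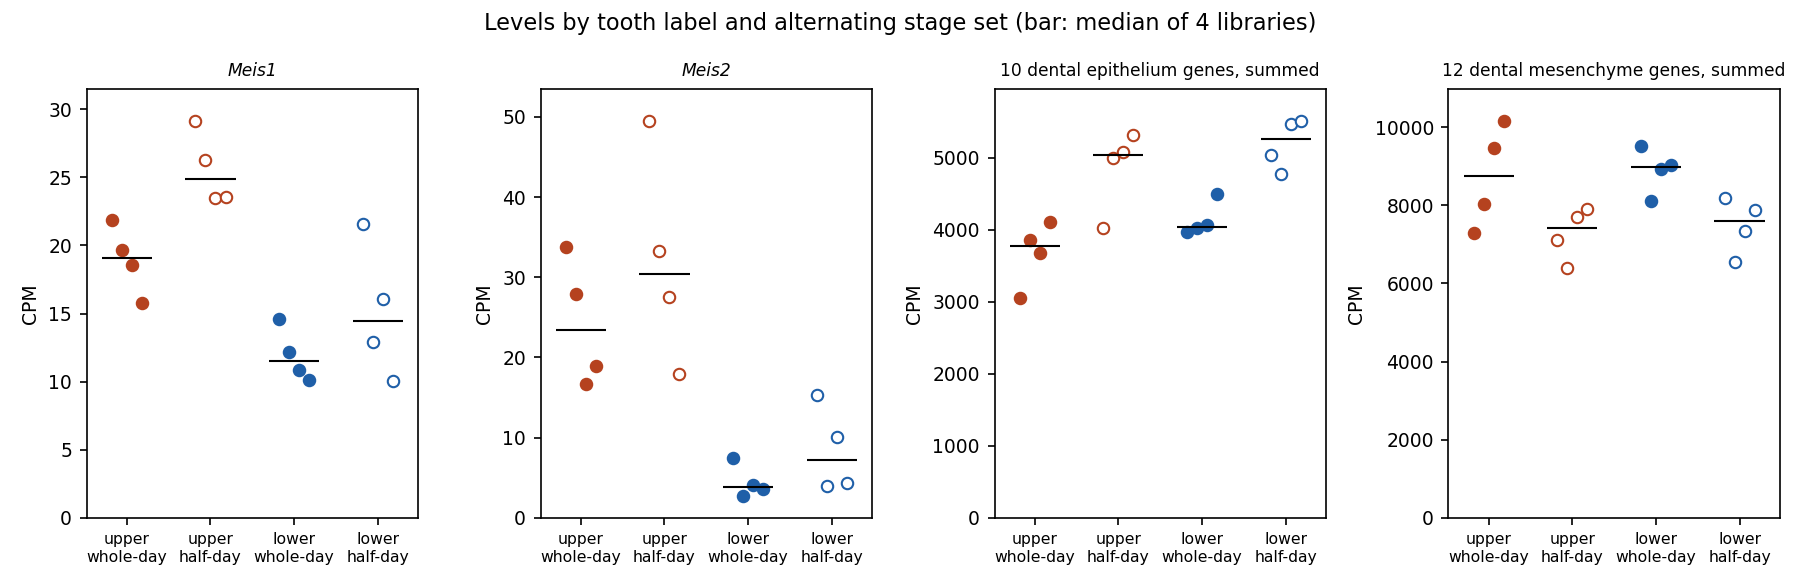
CPM (y axes) of Meis1, Meis2 and the summed marker genes of dental epithelium and dental mesenchyme in the 4 libraries of each tooth label and stage set (x axis), with a bar at the median. Meis1 and the epithelial sum are lower, and the mesenchymal sum higher, at the whole-day stages by their medians.

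For the tooth labels the same 2 lists were mixed, where 18.1% of all genes were higher in upper-labelled germs and 18.1% lower. Of the epithelial genes 2 were higher and 4 lower in upper-labelled germs, with sums of 3054 to 5316 CPM against 3967 to 5515 CPM in lower-labelled germs, and of the mesenchymal genes 4 were higher and 3 lower, with sums of 6398 to 10167 against 6559 to 9514 CPM. The neuron list had 2 of 10 genes higher and 3 lower, with sums that did not overlap at 42.0 to 57.7 against 66.8 to 94.4 CPM. Macrophage and leukocyte genes had 0 of 10 higher and 7 lower, at 72.3 to 111 against 78.3 to 161 CPM, and cornifying oral epithelium 0 of 8 and 6, at 97.3 to 511 against 194 to 1593 CPM. Erythroid genes had 4 of 8 higher and 0 lower, at 34.7 to 148 against 15.6 to 34.3 CPM. The called ones included the embryonic globins Hbb-y (3.03 to 102 against 0.106 to 0.91 CPM), Hba-x (1.86 to 16.7 against 0.2 to 0.898 CPM) and Hbb-bh1 (0 to 1.21 against 0 to 0.026 CPM), which are known to decline as mouse embryos age. With the labelled stage Hbb-y fell by 1.33 ± 0.15 log2 per day in upper-labelled germs, and its slope in lower-labelled germs was -0.46 ± 0.24 (adjusted p = 0.295, edgeR quasi-likelihood F test). Whether germs that share a stage label were of the same age was not tested, and neither was the part of these lists in the Meis and Pbx differences. Endothelium had 1 of 10 higher and 4 lower, Schwann cell 0 of 8 and 0, skeletal muscle 1 of 10 and 2, smooth muscle and pericyte 0 of 8 and 3, cartilage 2 of 8 and 3, and bone and osteoblast 2 of 7 and 1.

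The other TALE genes were split between the tooth labels. Of 12 tested, 4 were higher and 3 lower in upper-labelled germs, where 18.1% of all genes were higher and 18.1% lower. Their median log2 difference was 0.12 against 0.01 over all genes. The repressors Tgif1 and Tgif2 were higher by 0.23 ± 0.05 and 0.22 ± 0.05. The Iroquois genes Irx1 (75.6 against 51.7 CPM on average, 0.55 ± 0.15) and Irx2 (0.24 ± 0.08) were higher too, while Irx5 was lower (18.8 against 29.0 CPM, -0.61 ± 0.16). Pknox2, whose protein binds Pbx as Meis proteins do, was lower in upper-labelled germs, at 1.61 to 6.91 against 5.51 to 13.1 CPM (-1.04 ± 0.28, adjusted p = 0.0102, edgeR quasi-likelihood F test). Irx6 was lower by 1.45 on the log2 scale with an SE of 0.49, but its mean was 0.136 CPM in upper-labelled germs and 0.407 CPM in lower-labelled germs. Pbx4 (0.22 ± 0.22), Pknox1 (-0.08 ± 0.05), Mkx (0.14 ± 0.13), Irx3 (-0.09 ± 0.10) and Irx4 (0.10 ± 0.50) did not pass. At the whole-day stages, where Meis1 was lower, Pknox2 was higher by 0.97 ± 0.13, as were Mkx, a tendon gene, by 0.34 ± 0.09 and Irx1 by 0.31 ± 0.10. None of these 12 genes passed the threshold as lower there (6.67% of all genes were lower and 8.42% higher). Irx5 had -0.31 ± 0.13 and Irx4 -1.06 ± 0.40 (adjusted p = 0.126 and 0.0932, edgeR quasi-likelihood F test). Irx4 averaged only 0.274 CPM in upper-labelled and 0.258 CPM in lower-labelled germs. With stage, Tgif2 fell in upper-labelled germs (-0.14 ± 0.03 log2 per day) and Irx6 rose in lower-labelled germs (0.79 ± 0.18), and no other of the 12 passed in either.

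**Figure D4:**
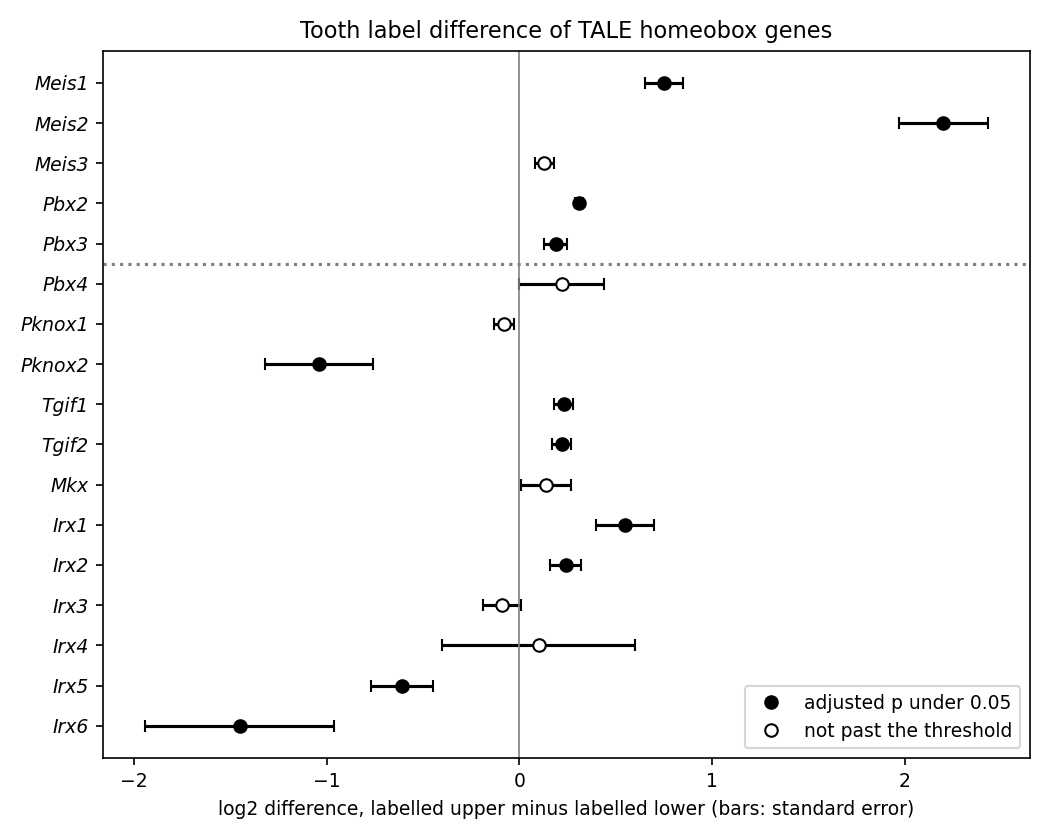
Log2 difference, labelled upper minus labelled lower (x axis), of the 5 Meis and Pbx genes (above the dotted line) and 12 other TALE genes (below it), with bars for the standard error and filled points for an adjusted p under 0.05. Meis2 at 2.20 lies farthest to the right, and Irx6 at -1.45 and Pknox2 at -1.04 farthest to the left.

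Hox genes, the trunk partners of Meis and Pbx, were scarcely counted. Of 39 Hox genes 11 had no count in any library and 4 passed the filter. All 39 together summed to 1.40 to 3.32 CPM in upper-labelled germs and 2.42 to 4.28 CPM in lower-labelled germs. Hoxd8 and Hoxb2 were the highest, averaging 0.794 and 0.584 CPM over the 16 libraries. Hoxb2 was lower in upper-labelled germs (-1.20 ± 0.39), and the other 3 tested did not pass.

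Retinoic acid genes differed in both directions. Of 18 tested 6 were higher and 8 lower in upper-labelled germs, where 18.1% of all genes were higher and 18.1% lower. Their median log2 difference was -0.25 against 0.01 over all genes. Cyp26b1, which breaks retinoic acid down, was higher (51.1 to 129 against 9.61 to 25.5 CPM, 2.50 ± 0.16). Aldh1a3, which makes it, was lower (23.8 to 86.1 against 90.5 to 183 CPM, -1.62 ± 0.18), as were the receptor gene Rxrg (-3.46 ± 0.27) and the binding protein gene Crabp1 (-1.79 ± 0.19). Of the other Aldh1a genes, Aldh1a1 was lower (-2.54 ± 0.32), averaging 0.937 against 4.44 CPM. Aldh1a2 averaged 101 against 67.5 CPM (0.60 ± 0.24) and did not pass (adjusted p = 0.0685, edgeR quasi-likelihood F test). The other two breakdown enzyme genes went the opposite way to Cyp26b1, with Cyp26a1 lower (12.5 to 45.6 against 57.3 to 102 CPM, adjusted p = 2.67e-05) and Cyp26c1 lower (13.4 to 124 against 133 to 263 CPM, adjusted p = 0.00181, edgeR quasi-likelihood F test for both). Between the stage sets 5 of the 18 were higher and 1 lower at the whole-day stages (8.42% and 6.67% of all genes).

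The genes most like each member were taken as those with the smallest root mean square difference of centred log2 CPM over the 16 libraries, among 12471 genes, as a description without a test. For Meis1 these were Mgat5b (0.152 log2 units), Galntl4 (0.155) and Grhl3, an epithelial transcription factor gene (0.187), and 22 genes lay within 0.25, where Meis1 itself varied by 0.483 about its mean. For Meis2, which varied by 1.31, they were Sox2, a stem cell transcription factor gene (0.331), Cyp26b1 (0.349) and Krt19, a keratin gene (0.397), and 0 genes lay within 0.25. Sox2 measured 15.1 to 43.6 CPM in upper-labelled germs against 3.91 to 19.1 CPM in lower-labelled germs, and Krt19 28.5 to 56.5 against 6.07 to 20.6 CPM. Meis3, Pbx2 and Pbx3 varied by only 0.130, 0.181 and 0.156, so that 8639, 7363 and 8074 genes lay within 0.25 of them. Their nearest were Rbms2, Tmem8b and Kifc2 for Meis3, Zfp422, Klhl23 and Idh1 for Pbx2, and Ubfd1, Bin1 and Fam20b for Pbx3.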

How the data were processed

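For each of the 16 libraries the authors deposited raw counts, whole numbers listed by gene symbol and not normalized. Per the labels' protocols, RNA was poly(A) selected, made into libraries with a TruSeq V2 kit, which does not mark strand, and sequenced as 100 bp read pairs. The submitters' processing notes name mouse build mm10, HTSeq 0.5.3p9, TopHat2 2.0.6 and Bowtie2 2.0.2. For the annotation, the strand setting and the count mode, the sources used here say nothing, so reads of overlapping and antisense genes could not be told apart. The 5 summary lines of each file were left out. Of all counts 11.8% to 14.1% fell on no feature and 0.896% to 1.07% were ambiguous. No pair of 120 library pairs was identical, and the nearest differed at 18027 genes.

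CPM used each library's gene total. The filter asked for 0.269 CPM (10 counts at the median depth) in 2 or more libraries, and 16287 genes passed. All tests used edgeR 4.0.16 in R 4.3.3 (TMM, quasi-likelihood F test, Benjamini-Hochberg over all genes kept, threshold 0.05). Standard errors are the size of the log2 value over the root of F. The tooth comparison was fitted over 16 libraries with a natural spline of stage (3 degrees of freedom), slopes in the 8 libraries of each label, and the slope difference, the stage sets and their difference between labels over 16 libraries with linear slopes per label. With 1 library per tooth and stage, p-values measure scatter of single embryos about a curve. The labels pair the teeth of an embryo, and deviations from the label mean of same-numbered libraries correlated at 0.18 to 0.388 over 13602 genes. Residuals about a cubic curve of stage correlated at 0.17 to 0.549. Same-numbered libraries also share the labelled stage and the stage set, so these correlations cannot tell a shared embryo apart from those. The main fits over 16 libraries did not model the pairing that the labels give. The scripts were tested on simulated counts. DESeq2 1.42.0 and other settings are in the closing section. Log2 CPM for likeness used a prior count of 2 and genes of mean count at least 50. Sequences and positions came from GENCODE M21 (GRCm38). Exon lengths are unions over transcripts.

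Members, gene lists and comparisons were chosen with earlier results of these data known. The naming rule took all members, other TALE genes past the tooth label threshold, the 2 highest Hox genes, up to 4 retinoic acid genes of smallest p and the 3 genes nearest each member. TALE genes that did not pass, Cyp26a1, Cyp26c1, Aldh1a1, Aldh1a2, the globins and other examples from marker lists were named after their values were seen. Some listed genes are not reported here.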

Additional observations from a re-analysis of the deposited data

Results flagged for a closer look

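Mkx, a TALE gene outside the Meis and Pbx group, differed between the stage sets to a different extent in each tooth label. In the libraries labelled upper it measured 28.6 to 30.7 CPM at the 4 whole-day stages and 17.9 to 21.9 CPM at the 4 half-day stages, and in those labelled lower 19.5 to 25.7 and 18.5 to 25.2 CPM. The alternation in upper-labelled germs minus that in lower-labelled germs was 0.59 ± 0.11 log2 (adjusted p = 0.0287, edgeR quasi-likelihood F test). This comparison moved much with the settings. It called 132 genes, but 17 positive and 10 negative with a block for individual, and 10 to 151 with 1 individual left out. Whether Mkx passed under those settings was not looked at. No library of the 5 members or the 12 other TALE genes stood apart from its label by Dixon's 95% criterion in 34 groups looked at.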

How the results depend on the processing

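Of 440 member results under other settings, 397 kept their direction and their side of the threshold, 25 no longer passed, 9 newly passed and 9 turned in sign. The tooth label differences of Meis1 (0.66 to 0.80), Meis2 (1.92 to 2.53) and Pbx2 (0.27 to 0.34) passed under every setting run. A replicate block for individual, which the labels pair, was run for the tooth label difference, the slope difference and the stage set difference between labels, and changed no member call in these, with the tooth label difference of Meis2 at 2.25 and of Pbx3 at 0.19. No block could be fitted where 1 individual gives 1 library (slopes within a label) or where stage set and individual coincide. Only the slope difference of Meis2 turned in sign there, to -0.01 against 0.02, neither near the threshold. Of the stage blocks and sets, chosen after seeing the data, the last 4 stages gave Meis3 0.24, now past the threshold, and Pbx3 0.03, no longer past it, and Pbx3 was also lost at the whole-day (0.17) and half-day (0.18) stages alone. With the stage set added, Meis1 fell in upper-labelled germs (-0.13) and in lower-labelled germs (-0.23), where 2 members then passed. In lower-labelled germs 2 members passed also with library totals alone (Meis1 -0.26) and with DESeq2 (Meis1 -0.25), and 0 with no filter (Pbx2 -0.07). For the stage sets, upper-labelled germs alone gave Pbx2 -0.01 and lower-labelled germs alone gave Meis1 -0.21 and 0 members passing. The cause of these changes was not tested.

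With each individual left out in turn, the tooth label difference ranged over 0.11 to 0.17 for Meis3 and 0.15 to 0.21 for Pbx3. The slope in upper-labelled germs ranged over -0.22 to -0.11 for Meis1, 0.08 to 0.12 for Meis3, -0.09 to -0.08 for Pbx2 and -0.13 to -0.12 for Pbx3, with 1 to 5 members passing. The slope in lower-labelled germs ranged over -0.28 to -0.17 for Meis1, -0.48 to -0.19 for Meis2, -0.02 to 0.00 for Meis3, -0.08 to -0.06 for Pbx2 and -0.01 to 0.04 for Pbx3, with 0 to 2 members passing. The slope difference ranged over -0.16 to 0.08 for Meis2 and -0.02 to 0.00 for Pbx2. The stage set difference ranged over -0.34 to -0.26 for Meis1 and -0.02 to 0.09 for Meis3, with 0 to 1 member passing, and its difference between labels over -0.07 to 0.05 for Meis3.

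Over all genes, slopes passed for 999 in upper-labelled germs (2051 with DESeq2, 2152 with the stage set added) and for 670 in lower-labelled germs (1799 and 1789). The slope difference passed for 205 (614 with DESeq2, 475 with the replicate block, 608 with the stage set added) and the stage set difference between labels for 132 (319 with DESeq2, 27 with the replicate block). The tooth label difference passed for 5902 genes, and for 3144 in the last 4 stages, 3183 at whole-day and 3288 at half-day stages alone. The stage set difference passed for 2457, and for 1345 in upper-labelled germs and 1056 in lower-labelled germs alone. With the libraries of an individual summed, 1236 genes were higher and 904 lower at the whole-day stages. With 1 individual left out, which also leaves fewer libraries, these counts were 192 to 1401 for upper slopes (over 1.5 times fewer without 1, 2, 6 or 8), 34 to 758 for lower slopes (1, 2, 4, 6, 7 or 8), 22 to 183 for the slope difference (1, 2, 7 or 8), 10 to 151 for the stage set difference between labels (3, 4, 5, 6, 7 or 8), 1507 to 2107 for the stage sets (7) and 4847 to 5534 for the tooth label difference. With 1 library per tooth and stage, small slopes such as those of Pbx2 and Pbx3 stand close to the threshold.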
